A study of Homo sapiens with 6 samples.

Results

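The Notch receptors NOTCH1, NOTCH2 and NOTCH3, the ligands JAG1, JAG2 and DLL1, and the target genes HES1, HEY1, HEYL and NRARP were examined in SKOV3 cells after KLF5 silencing. These 10 genes were chosen by name from the 29185 genes of the deposited expression table, and each of them was listed there once. The cell line SKOV3 comes from a human ovarian carcinoma, and KLF5 is a zinc finger transcription factor that binds CACCC and GC-rich DNA. Poly(A) RNA of SKOV3 cells stably carrying a pLKO knockdown vector against KLF5 (sh-KLF5, 3 libraries) was sequenced beside that of control SKOV3 cells (sh-NC, 3 libraries), so that the expression downstream of KLF5 could be compared. The labels give the genotype of the controls as WT, while the design text and the paper call them sh-NC. Infected cells were selected with puromycin. The number of hairpins and of independent lines behind the sh-KLF5 libraries is not given in the sources used here, and no line with restored KLF5 was among the samples. The study's methods speak of independent repetitions in general, but the labels do not say whether the libraries of a group came from separate cultures. If they did not, the p-values measure only the spread between libraries, which may be technical.

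Notch signalling passes between touching cells. A ligand of the Jagged or Delta type on one cell binds a Notch receptor on its neighbour, the receptor is cut by ADAM proteases and then by gamma-secretase, and the released intracellular domain joins the DNA-binding protein RBPJ and a Mastermind coactivator to switch on genes such as those of the HES and HEY repressors. Ligands on the same cell can also block its receptors, and NOTCH3 gain has been described in ovarian carcinoma.

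In the sh-KLF5 cells, mRNA of the ligand JAG1 and of the receptor NOTCH1 was higher than in the controls, at 208% and 157% of the sh-NC mean, and mRNA of the receptor NOTCH3 was lower, at 43.1%. NOTCH2, the receptor with the highest level, the ligand JAG2 and the target gene HES1 did not pass the test. HEYL, a target gene with few reads, had reads in all 3 sh-NC libraries and none in the sh-KLF5 libraries. Of the 10 genes, 8 had enough reads for the test, and of these 2 rose, 1 fell and 5 did not pass an adjusted p of 0.05 (limma with Benjamini-Hochberg adjustment over 15803 genes). Over all tested genes, 12.9% passed, with 6.04% higher and 6.85% lower. The median log2 fold change was 0.05 over the 8 tested Notch genes and -0.0023 over all tested genes.

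KLF5 itself had normalized counts of 4371, 4425 and 4494 in the sh-NC libraries and of 1745, 1440 and 1436 in the sh-KLF5 libraries, 34.8% of the control mean (log2 fold change -1.53, SE 0.12, adjusted p 2.47e-07 by limma). A normalized count is the number of reads on a gene divided by 1 factor for its library. The libraries held 15852319 to 17543896 reads (sh-NC) and 16009859 to 16871350 reads (sh-KLF5). Fold changes are differences of log2(normalized count + 1), a scale on which changes of genes with few reads come out too small. All 9 epithelial markers looked at, among them EPCAM and PAX8, had reads in every library. Of these 9, KRT7, KRT8, KRT18 and MUC16 fell (limma, adjusted p under 0.05), 0 rose, and the summed level was 3305 to 3921 CPM (reads scaled to the library total) in sh-NC and 1748 to 2303 CPM in sh-KLF5. Of 3 leukocyte markers, PTPRC and CD68 had 3 reads or fewer in each library, while CD14 had 238, 151 and 180 reads in sh-NC and 340, 391 and 189 in sh-KLF5 (log2 fold change 0.66, adjusted p 0.0725 by limma, and past the threshold in edgeR and DESeq2). Of 4 endothelial markers analysed, 2 were tested. TEK rose (log2 fold change 2.11, adjusted p 0.0442, limma), from 8, 1 and 1 reads in sh-NC to 17, 11 and 12 in sh-KLF5. PECAM1 did not pass (-0.61, adjusted p 0.172, limma). In edgeR and in DESeq2, 0 endothelial markers passed the adjusted threshold. The part of these markers in the results on the Notch genes was not tested. The sh-KLF5 1 library stood apart most from its group (chi-square per degree of freedom 23.5 and 30.4 against the others, beside 10.4 between those and 4.33 to 8.41 between sh-NC libraries).

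DNA just upstream of the start site is shown for the 3 genes that passed the test, NOTCH1, NOTCH3 and JAG1, since KLF5 was silenced, and for HES1, since it is the best-known gene switched on by RBPJ. RefSeq promoter windows on GRCh38.p14 were found for 8 of the 10 genes. The RefSeq start of NOTCH1 (136546048) lies upstream of its GENCODE 29 start (136545786), so its window is not next to the latter. Each line gives up to 250 bases before the RefSeq start, 5′ to 3′ on the strand of the gene, without bases that lie in exons of GENCODE 29. Capitals mark matches, on either strand, to the RBPJ core TGGGAA. They also mark the KLF-type box CACCC, and likewise the GC box, whose letters are GGGCGG. A match on the other strand appears as the reverse complement. Overlapping matches were counted separately. NOTCH1 lies on chr9:136546049-136546298 (minus strand), NOTCH3 on chr19:15200996-15201245 (minus), JAG1 on chr20:10674000-10674249 (minus) and HES1 on chr3:194135898-194136144 (plus).
NOTCH1: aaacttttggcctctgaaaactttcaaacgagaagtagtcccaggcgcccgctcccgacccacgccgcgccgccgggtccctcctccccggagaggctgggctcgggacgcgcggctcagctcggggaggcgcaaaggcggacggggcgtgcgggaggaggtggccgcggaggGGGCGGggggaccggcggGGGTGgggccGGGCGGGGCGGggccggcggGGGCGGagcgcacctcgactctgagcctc
NOTCH3: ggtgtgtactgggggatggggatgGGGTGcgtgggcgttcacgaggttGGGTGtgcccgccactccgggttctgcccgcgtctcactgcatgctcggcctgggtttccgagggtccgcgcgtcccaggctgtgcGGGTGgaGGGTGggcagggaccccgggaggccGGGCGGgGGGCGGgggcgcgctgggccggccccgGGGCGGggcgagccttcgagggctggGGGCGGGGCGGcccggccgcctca
JAG1: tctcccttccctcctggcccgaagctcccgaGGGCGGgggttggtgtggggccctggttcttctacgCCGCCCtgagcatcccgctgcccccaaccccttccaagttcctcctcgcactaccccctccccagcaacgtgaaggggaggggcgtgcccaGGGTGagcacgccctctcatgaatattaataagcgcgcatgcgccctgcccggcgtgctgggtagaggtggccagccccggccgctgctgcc
HES1: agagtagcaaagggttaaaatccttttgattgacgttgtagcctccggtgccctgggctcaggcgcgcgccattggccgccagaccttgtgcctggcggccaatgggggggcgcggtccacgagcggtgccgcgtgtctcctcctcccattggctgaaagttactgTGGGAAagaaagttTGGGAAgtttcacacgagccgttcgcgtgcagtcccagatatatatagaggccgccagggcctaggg

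The NOTCH3 window held 4 CACCC and 5 GGGCGG matches. The NOTCH1 window held 1 CACCC and 4 GGGCGG matches, and the JAG1 window 1 CACCC and 2 GGGCGG matches. In HES1, TGGGAA occurred at 84 and 70 bases before the RefSeq start, both on the plus strand, with no CACCC or GGGCGG. Of the 35116 RefSeq promoter windows of 250 bases, 54.7% held CACCC, 42.6% held GGGCGG, 20.8% held TGGGAA, and 2.90% held TGGGAA at 2 or more positions. At least 1 match to the short letters CACCC, or to GGGCGG, is therefore common in promoters. How many windows held as many of these matches as NOTCH3 was not counted. The windows of genes that did not pass held such matches too, 2 CACCC and 2 GGGCGG in JAG2, 4 GGGCGG in NRARP and 1 of each in NOTCH2. HEYL had TGGGAA at 178 and 99 bases before its RefSeq start and 3 GGGCGG, in a window that lies within a GENCODE 29 exon and is not printed. TGGGAA was not found in the 250 bases before NOTCH1, NOTCH2, NOTCH3, JAG1, JAG2 or NRARP, which says only that these letters are not in these windows. A match is a run of letters and was not measured as a binding site here.

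NOTCH1 (ENSG00000148400, chromosome 9, 136494433 to 136545786, minus strand, GRCh38) is a single-pass receptor whose cut intracellular part acts in the nucleus. Counts after normalization were 1405, 1279 and 1253 in the sh-NC libraries and 1739, 2297 and 2144 in the sh-KLF5 libraries. The groups did not overlap, the sh-KLF5 values being the higher, and sh-KLF5 1 was the lowest of its group. The mean rose from 1312 ± 81.3 to 2060 ± 288 (SD, n = 3 each). The log2 fold change was 0.64 (SE 0.13, 95% interval 0.38 to 0.91, adjusted p 0.00219 by limma), which is under the fold threshold of 1 used in the study. Leaving out any 1 library gave 0.56 to 0.76, with an adjusted p of at most 0.0229. In bulk RNA, more cells that make a transcript and more of it per cell cannot be told apart, and the same holds for a decrease.

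NOTCH2 (ENSG00000134250, chromosome 1, 119911553 to 120069626, minus strand) had the highest level of the 3 receptors. The sh-NC libraries had 6371, 6778 and 6336 normalized counts, and the sh-KLF5 libraries 7086, 7058 and 7626. The groups did not overlap, but the difference was small, with a log2 fold change of 0.16 (SE 0.11, 95% interval -0.07 to 0.39), and it did not pass the test (adjusted p 0.383, limma). Of the shorter NOTCH2NL genes, which arose by partial copying of NOTCH2 and share its sequence, NOTCH2NLA had 31.8 to 52.1 normalized counts in sh-NC and 34.7 to 52.4 in sh-KLF5 (log2 fold change 0.04, adjusted p 0.954, limma). How the counting split reads between NOTCH2 and such copies is uncertain.

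NOTCH3 (ENSG00000074181, chromosome 19, 15159038 to 15200981, minus strand), a receptor best known from vascular smooth muscle and mural cells, went the other way. The sh-NC libraries had 153.6, 141.9 and 124.1 normalized counts, and the sh-KLF5 libraries 43.8, 70.8 and 66.2. Every sh-KLF5 library lay below every sh-NC library, and sh-KLF5 1 was again the lowest. The mean fell from 139.9 ± 14.8 to 60.3 ± 14.4 (SD, n = 3 each), a log2 fold change of -1.23 (SE 0.22, 95% interval -1.70 to -0.75, adjusted p 0.00132 by limma). With any 1 library left out the value was -1.35 to -1.01, and the largest adjusted p was 0.0109. NOTCH3 was the only 1 of the 8 tested Notch genes to fall past the fold threshold, as 3.37% of all tested genes did.

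Some markers of fibroblasts and mural cells fell as NOTCH3 did, and others did not. Their summed level was 40.5 to 67.5 CPM in sh-NC and 18.7 to 40.7 CPM in sh-KLF5, over 8 listed rows of 7 genes, and 3 of the 7 rows tested fell (COL1A2, PDGFRA and DCN) and 0 rose, in limma, edgeR and DESeq2 alike and also at an unadjusted p under 0.05. PDGFRA, a receptor of mesenchymal cells, had 99, 70 and 56 reads in sh-NC and 0, 0 and 2 in sh-KLF5. Of the mural cell markers, PDGFRB had 20, 19 and 8 reads in sh-NC and 8, 9 and 2 in sh-KLF5, and was not tested. RGS5, in the listed row with more reads, had 35, 35 and 19 in sh-NC and 55, 29 and 32 in sh-KLF5 (log2 fold change 0.37, and 0.40 in its other row). RGS5, COL1A1 (0.30) and LUM (-0.45) did not pass the test (limma). The part of such markers in the NOTCH3 result was not tested.

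JAG1 (ENSG00000101384, chromosome 20, 10637684 to 10673999, minus strand), a membrane-bound Notch ligand, had the smallest adjusted p of the 8 tested genes. It had 151, 119 and 132 normalized counts in the controls, against 280.3, 279 and 277 in sh-KLF5. The sh-KLF5 libraries were nearly alike, with less spread than counting error alone usually leaves, and all lay far above the controls. The mean rose from 133.9 ± 15.9 to 278.8 ± 1.86 (SD, n = 3 each), a log2 fold change of 1.06 (SE 0.16, 95% interval 0.72 to 1.40, adjusted p 0.000236 by limma). This was just past the fold threshold, as was a rise in 1.9% of all tested genes. Without sh-NC 2, the lowest control library, the log2 fold change was 0.98 with an adjusted p of 0.00313, so the gene still passed the p threshold but no longer the fold threshold. An antisense gene, AL050403.2, overlaps 0.85% of the exonic bases of JAG1, and reads of the pair cannot be told apart unless strand was used in counting.

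The second Jagged ligand, JAG2 (ENSG00000184916, chromosome 14, 105140981 to 105168824, minus strand), had normalized counts of 597, 532 and 519 in sh-NC and 472, 516 and 597 in sh-KLF5. The groups overlapped, and the means were 549 ± 41.7 and 528 ± 63.2 (SD, n = 3 each). The log2 fold change was -0.06, with an interval of -0.34 to 0.22 (limma, adjusted p 0.819), and its sign turned when sh-NC 1 or sh-KLF5 1 was left out. AL512356.1, on the same strand, overlaps 7.33% of its exonic bases.

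DLL1 (ENSG00000198719, chromosome 6, 170282206 to 170306565, minus strand), a Delta-type ligand, was close to the lower limit of the data. It had 12, 9 and 2 reads in sh-NC and 14, 10 and 1 in sh-KLF5. Library 3 was the lowest in both groups, and the groups overlapped over nearly their whole range. The log2 fold change of -0.07 had an SE of 0.77 and an interval of -1.70 to 1.57 (limma, adjusted p 0.973), so a difference in DLL1 of the size seen for JAG1 was not detectable at this depth.

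**Figure D1:**
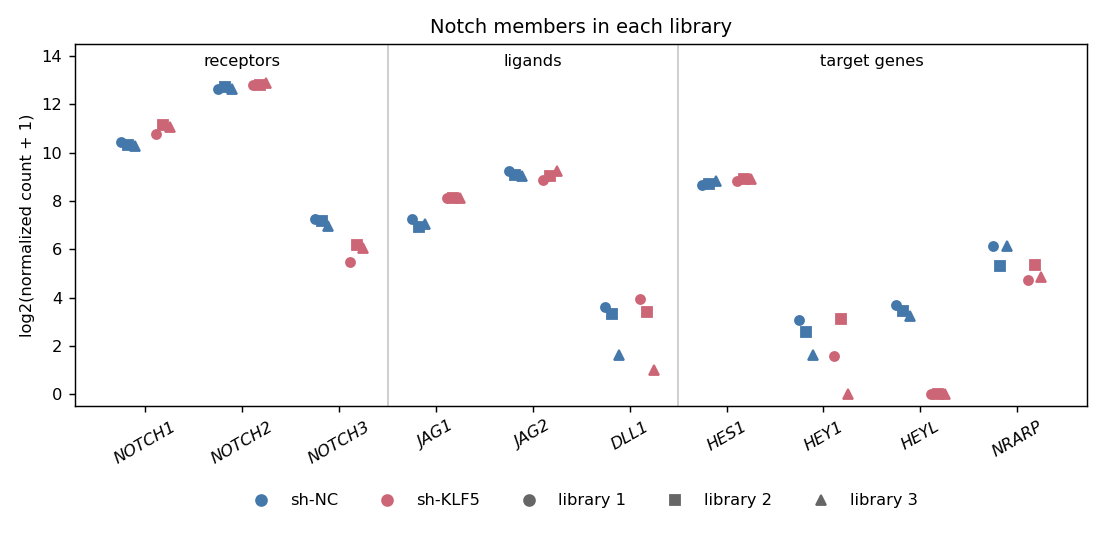
Level of each of the 10 Notch genes in each library, as log2(normalized count + 1) on the vertical axis, with sh-NC in blue, sh-KLF5 in red and the symbol giving the library number. The red points of NOTCH1 and JAG1 lie above all blue points, those of NOTCH3 and HEYL below them, and DLL1 and HEY1 spread widely within both groups.

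HES1 (ENSG00000114315, chromosome 3, 194136145 to 194138732, plus strand), the repressor most often read as a sign of Notch activity, had normalized counts of 403, 412 and 449.9 in sh-NC and 458, 476 and 484 in sh-KLF5. The lowest sh-KLF5 library lay just above the highest sh-NC library. The means were 422 ± 24.9 and 473 ± 13.7 (SD, n = 3 each), and the log2 fold change of 0.17 (SE 0.12, 95% interval -0.10 to 0.43) did not pass the test (adjusted p 0.438, limma). The interval does not reach the fold threshold of 1 in either direction.

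NRARP (ENSG00000198435, chromosome 9, 137300482 to 137302251, minus strand) encodes a small ankyrin repeat protein that is switched on by Notch and dampens it. It had normalized counts of 69.8, 38.4 and 70.0 in sh-NC and 25.5, 39.8 and 28.1 in sh-KLF5. The sh-NC 2 library lay among the sh-KLF5 values, under sh-KLF5 2, and the other control libraries lay above all of them. The log2 fold change was -0.89 (SE 0.31, 95% interval -1.54 to -0.24, p 0.0106 by limma), and the adjusted p of 0.0699 missed the threshold. Without sh-NC 2 it was -1.17 with an adjusted p of 0.035. With all libraries and the replicate number as a block the adjusted p was 0.0441 (limma), so the call depended on this library and on the model.

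HEYL (ENSG00000163909, chromosome 1, 39624153 to 39639945, minus strand), a HEY-family repressor, had 13, 10 and 8 reads in sh-NC and 0 in each sh-KLF5 library. A count of 0 was given a bound of 3 reads per library (0.178 to 0.187 CPM in these libraries). At that bound, its level in sh-KLF5 was 3.39-fold lower than the sh-NC mean. The bound covers counting error of the counts of 0 only. Counting error of the sh-NC reads is not in this figure. HEYL had too few reads for the filter and was not tested in the main comparison. An exact two-sided permutation test over the 6 libraries gave p = 0.1, the smallest that 3 against 3 libraries allow. Without the filter on low counts limma gave an adjusted p of 0.00014, although the sh-KLF5 values were all 0 and so had no spread.

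HEY1 (ENSG00000164683, chromosome 8, 79764010 to 79767863, minus strand), the other HEY-family repressor of the set, had 8, 5 and 2 reads in sh-NC and 2, 8 and 0 in sh-KLF5. The groups overlapped, the gene was under the filter, and no fold change is given for it. Counting HEYL, the groups did not overlap for 6 of the 10 genes, of which NOTCH1, NOTCH2, JAG1 and HES1 were higher and NOTCH3 and HEYL lower in sh-KLF5. Non-overlapping groups were found for 31.3% of all tested genes, with 15.4% higher and 15.9% lower. HEYL and HEY1 are not among the tested genes. Of the 8 tested Notch genes, the groups did not overlap for NOTCH1, NOTCH2, NOTCH3, JAG1 and HES1.

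**Figure D2:**
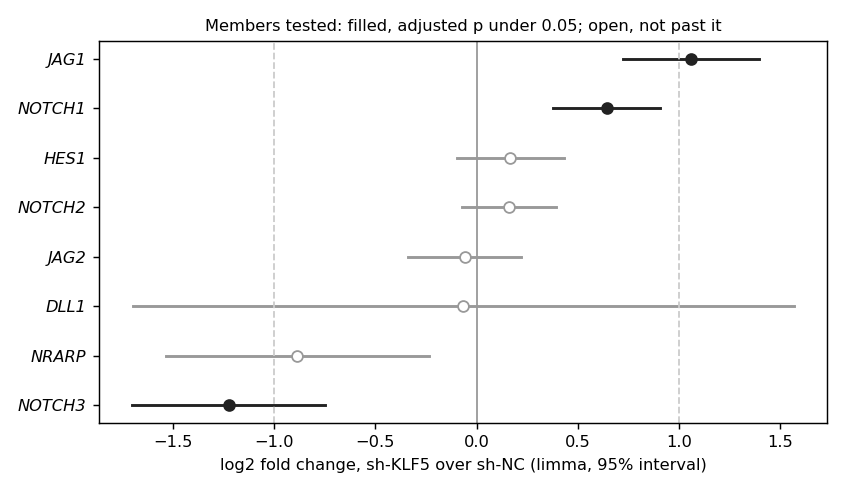
Log2 fold change of sh-KLF5 over sh-NC (horizontal axis) for the 8 tested Notch genes, with limma's 95% interval as a line, filled points for an adjusted p under 0.05 and dashed lines at the fold threshold of 1 in both directions. JAG1 (1.06) and NOTCH3 (-1.23) lie past the dashed lines, NOTCH1 (0.64) lies inside them, and DLL1 has the widest interval.

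Levels of different genes were compared per length, as RPKM (reads scaled to the exonic length and to the library total, computed from the recovered reads). In sh-NC, NOTCH2 stood first at 23.4 ± 1.16 RPKM, followed by HES1 at 12.4 ± 0.519, NOTCH1 at 7.67 ± 0.565, JAG2 at 5.21 ± 0.456 and NRARP at 2.03 ± 0.609 (SD, n = 3). NOTCH3 at 0.904 ± 0.109 and JAG1 at 0.873 ± 0.107 RPKM came next, and their ranges overlapped. HEYL (0.168 RPKM), DLL1 (0.140) and HEY1 (0.0912) were lowest, and neighbours among these overlapped. The other neighbours in this order were separated in all libraries.

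In the sh-KLF5 order, HEYL, with no reads, stood last, and JAG1 moved up. JAG1 rose to 1.83 ± 0.0613 RPKM and stood above NRARP at 1.07 ± 0.287 and NOTCH3 at 0.391 ± 0.0951 (SD, n = 3). NOTCH2 remained first at 26.3 ± 0.497 RPKM. HES1 at 14.0 ± 0.423 and NOTCH1 at 12.1 ± 1.78 RPKM overlapped in sh-KLF5, whereas in sh-NC they had been apart.

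**Figure D3:**
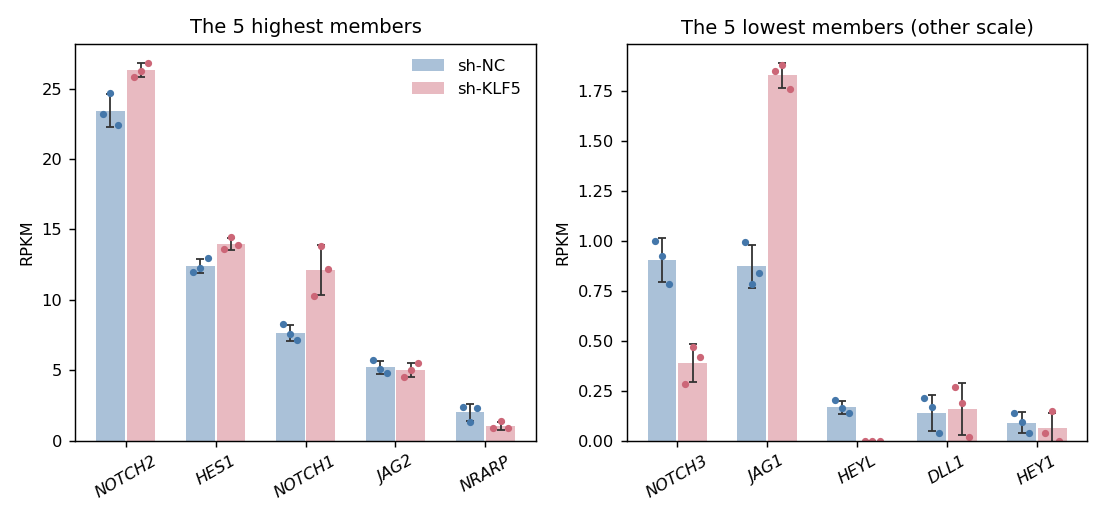
Level per length of the 10 Notch genes in RPKM (linear axes starting at 0, with a smaller scale in the right panel), with bars for the mean of 3 libraries, error bars for the SD and points for the libraries. NOTCH2 is highest in both groups, and JAG1 stands beside NOTCH3 in sh-NC (0.873 and 0.904 RPKM) and well above it in sh-KLF5 (1.83 and 0.391 RPKM).

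The make-up of the receptor mRNA differed between the groups. Summed over the 3 receptors, the level was 32.0 ± 1.46 RPKM in sh-NC and 38.8 ± 2.15 RPKM in sh-KLF5 (SD, n = 3 each), with no overlap between the groups. NOTCH2 made up 73.2% of this sum in sh-NC and 67.9% in sh-KLF5, NOTCH1 24.0% and 31.1%, and NOTCH3 2.82% and 1.0%. Within each library, NOTCH3 stood at 11.8% ± 0.712 of the NOTCH1 level in sh-NC and at 3.20% ± 0.360 in sh-KLF5 (two-sided exact permutation p = 0.1, as low as 3 against 3 libraries allow).

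Among the ligands, JAG1 stood at 16.8% ± 1.16 of the JAG2 level in sh-NC and at 36.7% ± 4.50 in sh-KLF5 (SD, n = 3 each, the same exact permutation p of 0.1). Every sh-KLF5 library was above every sh-NC library in this ratio. JAG2 made up 83.8% of the sum of JAG1, JAG2 and DLL1 in sh-NC and 71.5% in sh-KLF5. That sum leaves out DLL3, which stood above JAG1 in both groups, at 1.85 ± 0.215 RPKM in the controls and at 2.19 ± 0.179 RPKM after silencing (SD, n = 3 each). Among the targets, NRARP stood at 16.4% ± 4.89 of the HES1 level in sh-NC and at 7.66% ± 1.80 in sh-KLF5 (exact permutation p = 0.1).

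Other genes of the pathway were taken from 9 lists with 83 genes, of which 77 were analysed here and 69 had enough reads for the test. Of these 69, 8 rose, 6 fell and 55 did not pass, so that 20.3% passed, beside 12.9% of all tested genes (limma, adjusted p under 0.05). Their median log2 fold change was 0.0034. The lists were drawn up with earlier results of these data known, and the counts are a description.

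Among 7 tested other receptors and ligands, 2 fell and 5 did not pass. NOV (also called CCN3), a secreted matricellular protein that can bind NOTCH1, had normalized counts of 838.9, 837.6 and 831.9 in sh-NC and 556, 441 and 431 in sh-KLF5 (log2 fold change -0.82, adjusted p 0.000362, limma). MFAP2, a microfibril protein reported to interact with Jagged1, had 60.5, 34.5 and 49.9 normalized counts in sh-NC and 0, 4.85 and 1.0 in sh-KLF5. Its fitted log2 fold change of -4.40 (adjusted p 9.7e-05, limma) rests on few reads in sh-KLF5 and ran from -5.85 to -2.97 with other tests, scalings, filters and pseudocounts. The Delta ligands DLL3 (0.23, adjusted p 0.523) and DLL4 (-0.27, adjusted p 0.714) did not pass in the same limma fit.

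The enzymes that act on receptors and ligands gave few calls. None of the 4 tested glycosylation enzymes passed in limma, with log2 fold changes from -0.16 to 0.71, the largest that of LFNG, a Fringe enzyme that shifts which ligands a receptor answers (adjusted p 0.149). At an unadjusted p under 0.05, 1 of these 4 passed in limma and in edgeR and 0 in DESeq2. Of 5 ligand ubiquitin ligases, MIB2 rose by 0.50 on the log2 scale (adjusted p 0.00748, limma), and MIB1, the main activator of Notch ligands, stood at -0.02. Of 9 genes for receptor cleavage, the gamma-secretase subunit APH1B rose by 0.48 (adjusted p 0.039, limma), while the protease gene ADAM10 (0.20) did not pass.

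In the nucleus, 1 of 9 genes of the RBPJ complex fell. MAML3, a Mastermind coactivator, had normalized counts of 79.1, 89.7 and 69.0 in sh-NC and 12.2, 15.5 and 12.0 in sh-KLF5, with wide separation of the groups (log2 fold change -2.49, SE 0.29, adjusted p 1.98e-05, limma). The related MAML2 had a log2 fold change of 0.92 and missed the threshold (adjusted p 0.0612, and 0.0386 with the replicate block, limma) and RBPJ stood at 0.27 (adjusted p 0.172). MGST2, on the other strand, overlaps 3.59% of the exonic bases of MAML3 and did not pass (0.05, adjusted p 0.881, limma).

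Of 12 corepressors, 2 fell and 10 did not pass. SPEN, which silences RBPJ target genes in the absence of Notch signal, fell by 0.47 on the log2 scale (adjusted p 0.0321, limma), and the Groucho-type corepressor TLE4 fell by 0.85 (adjusted p 0.0183, limma). Of 10 genes for receptor turnover and trafficking, DTX3 rose by 0.50 (adjusted p 0.0461, limma) and DTX4, another Deltex-family ubiquitin ligase, fell by 0.72 (adjusted p 0.0178, limma), while NUMB and ITCH, which limit the receptor, stood at -0.09 and -0.16. None of the 4 tested other HES and HEY genes passed in limma, with HES4 at -0.09 and HES7 at -0.25, and 0 of these 4 passed at an unadjusted p under 0.05 in limma, edgeR or DESeq2.

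Several of these calls were lost when 1 library was left out, which also leaves fewer libraries for the test. The adjusted p (limma) rose above 0.05 for MIB2 without sh-NC 1 or sh-NC 2, reaching 0.0639, and for SPEN without any one of the 3 sh-NC libraries, reaching 0.175. The same happened for TLE4 (up to 0.084) and DTX3 (up to 0.234) without sh-KLF5 2 or any one sh-NC library, for APH1B (up to 0.222) without any library but sh-KLF5 1, and for DTX4 (up to 0.0846) without sh-NC 1, sh-NC 3, sh-KLF5 1 or sh-KLF5 3. NOV, MFAP2 and MAML3 stayed past the threshold with each library left out in turn.

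**Figure D4:**
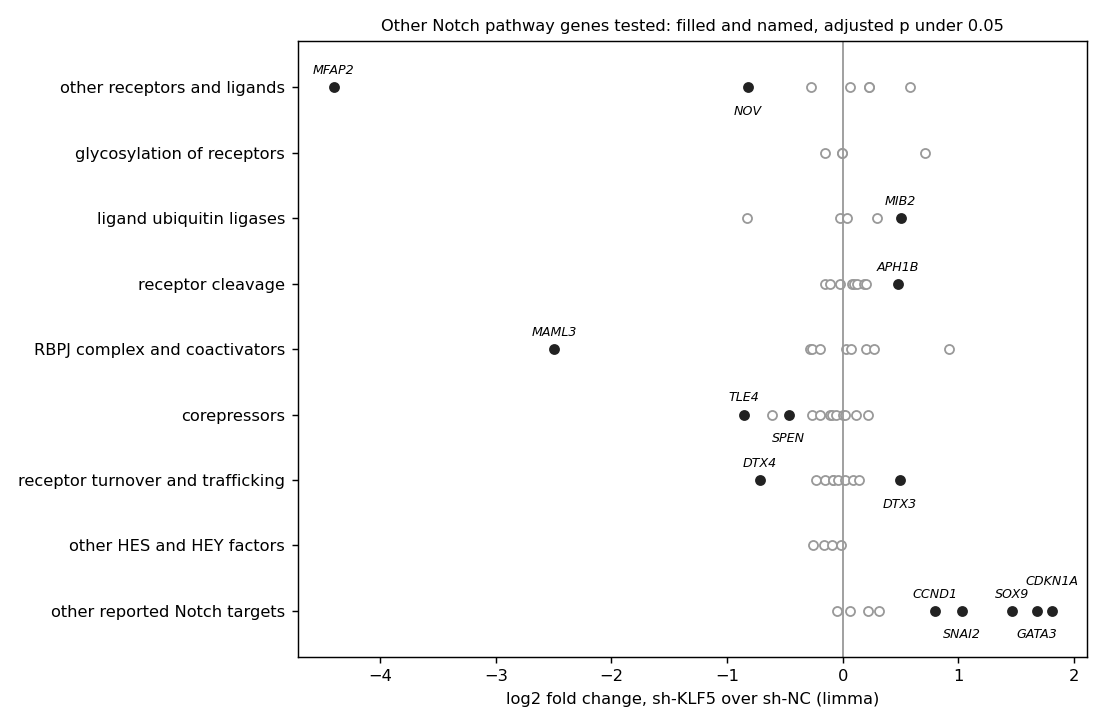
Log2 fold change of sh-KLF5 over sh-NC (horizontal axis, limma) for the 69 tested other Notch pathway genes, 1 row per list, with filled and named points for an adjusted p under 0.05. The named points of the other reported Notch targets all lie to the right of 0, while the single named point of the RBPJ complex, MAML3 (-2.49), and those of the corepressors lie to the left.

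Of 11 genes that have been reported as Notch targets in other cells, 9 had enough reads for the test. Of these 9, 5 rose, 0 fell and 4 did not pass in limma. PDGFRB, on this list but under the filter, had 20, 19 and 8 reads in sh-NC and 8, 9 and 2 in sh-KLF5. Over all tested genes, 6.04% rose and 6.85% fell. The counts were 5 higher and 0 lower in edgeR and in DESeq2 as well, also at an unadjusted p under 0.05. These tests used the same 6 libraries, and the list was drawn up with earlier results of these data known. CDKN1A, which encodes the cell cycle inhibitor p21, had normalized counts of 1759, 1321 and 1532 in sh-NC and 6529, 5829 and 4022 in sh-KLF5 (log2 fold change 1.81, SE 0.16, adjusted p 1.2e-06, limma). CCND1, which encodes cyclin D1 and drives entry into S phase, rose from 1629, 1379 and 1511 to 2619, 2515 and 2714 (0.80, adjusted p 0.000129, limma). These are genes of opposite effect on the cell cycle. Both also have regulators other than Notch, and what raised them here was not tested.

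The transcription factor genes SOX9 (log2 fold change 1.47, adjusted p 4.96e-05) and SNAI2 (1.04, adjusted p 0.00118) rose as well in the limma fit. SOX9 had normalized counts of 96.8, 79.8 and 108 in sh-NC and 252, 315 and 228 in sh-KLF5, well apart. GATA3 was low, with 9.31, 6.90 and 5.31 normalized counts in sh-NC and 27.5, 16.5 and 33.1 in sh-KLF5 (1.68, adjusted p 0.0171, limma), and it missed the threshold without sh-NC 2, sh-NC 3 or sh-KLF5 3 (adjusted p up to 0.0779). MYC, the target best known from T-cell leukaemia, did not pass (0.32, adjusted p 0.241, limma). Reads of the gene LTO1, on the other strand, can be shared with CCND1 over 10.3% of its exonic bases, and LTO1 did not pass the test (log2 fold change -0.15, adjusted p 0.514, limma).

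Of all tested genes outside the Notch lists, the pattern most like that of JAG1 over the 6 libraries was that of IGFBP3, which encodes a binding protein of insulin-like growth factors. The likeness was measured as the Euclidean distance of log2(normalized count + 1) after centring on the sh-NC mean, which was 0.167 for IGFBP3, 0.197 for BACE2, a membrane protease, and 0.208 for AC005586.2. IGFBP3 had normalized counts of 2089, 1798 and 2018 in sh-NC and 4164, 3806 and 3902 in sh-KLF5. It was picked by this distance, so a shared feature such as the lowest control value in sh-NC 2 comes with the choice.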

How the data were processed

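Poly(A) RNA-seq libraries of sh-KLF5 (n = 3) and sh-NC (n = 3) SKOV3 cells were analysed, and groups were taken from the sample titles. The authors deposited 1 table with a normalized signal per gene and library (reads divided by 1 factor per library), beside gene lengths and their own group means, log2 fold changes and p-values, which were not used. The submitters' processing notes name HISAT2 2.0.5, featureCounts 1.5.0-p3, DESeq2 1.20.0 and hg38. Whether counting used strand is not given in the sources used here. Reads were recovered with the lowest value above 0 of each library as the size of 1 read, which gave whole numbers for 100% of the values (tolerance 1e-06). No per-sample column was left unused. Coordinates of all 29185 genes (100%) matched GENCODE 29.

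The test was limma 3.58.1 on log2(normalized count + 1) (trend and robust empirical Bayes, R 4.3.3) over genes passing edgeR's filterByExpr (minimum count 10), with Benjamini-Hochberg adjustment over all of them. A gene was called at an adjusted p under 0.05, and the fold threshold was a log2 fold change above 1 or below -1. Alternatives were edgeR 4.0.16 and DESeq2 1.42.0 on the recovered reads, TMM or library size scaling, pseudocounts of 0.1 and 5, no filter or 10 reads in every library, non-robust estimation, the replicate number as a block, and leaving out each library. On simulated counts for the sh-KLF5 and sh-NC comparison, limma recovered 90.5% of 189 changed genes among 15487 tested, with 3 false calls. The planted changes all lay past the fold threshold, and a gene counted as recovered only past both thresholds. Calls under the fold threshold, such as that of NOTCH1, were therefore not covered. How far these values hold for the other calls reported here was not tested. Pairs of libraries of a group differed by more than sampling noise (chi-square per degree of freedom 4.33 to 8.41 in sh-NC and 10.4 to 30.4 in sh-KLF5) and were all kept as separate replicates.

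The 10 genes and the lists were chosen with earlier results of these data known. Named were the 10 genes, KLF5, every list gene with an adjusted p under 0.05 and up to 2 others per list, copies of NOTCH2, overlapping genes, cell type markers and the 3 genes most like JAG1. Figures were drawn with matplotlib 3.10.9.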

Additional observations from a re-analysis of the deposited data

How the results depend on the processing

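The rises of NOTCH1 and JAG1 and the fall of NOTCH3 kept their direction and an adjusted p under 0.05 in limma, edgeR and DESeq2, with every scaling, pseudocount and filter, with the replicate block and with each library left out. The number of the 10 genes that fell was 1, and it was 2 without a filter on low values, both with and without the fold threshold (HEYL was then tested), and 2 with the replicate block (NRARP, adjusted p 0.0441, limma). With 1 library left out, 0 to 1 genes rose and 1 to 2 fell past the fold threshold. At an adjusted p under 0.05, 1 to 2 fell. The gene added to NOTCH3 was NRARP without sh-NC 2, and HEYL without sh-NC 3, sh-KLF5 1 or sh-KLF5 2. HEYL, with 0 reads in every sh-KLF5 library, passed the filter there only through its sh-NC reads. Leaving out 1 library gave 4 to 8 higher and 3 to 5 lower among the other Notch pathway genes, with 4 to 5 higher and 3 to 4 lower when the library was an sh-NC one. The sign of DLL1 turned with edgeR (0.14), DESeq2 (0.16) and a pseudocount of 5 (0.030), and ranged from -0.67 to 0.83 with 1 library left out (0.31 without sh-NC 1, 0.16 without sh-NC 2 and 0.83 without sh-KLF5 3). JAG2 turned to 0.00088 without sh-NC 1 and to 0.018 without sh-KLF5 1, in a range from -0.15. The cause was not tested. DTX3 missed the threshold with library size scaling (adjusted p 0.0541). Deviations of same-numbered libraries from their group means correlated at 0.059, 0.033 and 0.050. The main test did not treat the numbers as pairs, although every library correlated best with its own number. Besides NRARP, the replicate block changed the call of MAML2 (adjusted p 0.0386) and of no other Notch gene tested. Genes with few reads, such as DLL1, HEY1 and HEYL, are limited by depth, and 3 libraries per group limit every test.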
